A study of Mus musculus with 5 samples.

Results

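The genes described here encode splicing factors, the RNA-binding and spliceosome proteins that remove introns from pre-mRNA, in the mouse ventromedial hypothalamus (VMH) after electroconvulsive seizures (ECS). They were taken as all genes of the array whose mouse symbol starts with Srsf, Hnrn, Sf3a, Sf3b, Snrp, Prpf or U2af. The probe set annotation holds 62 such symbols, and 57 of them have at least 1 probe set that names no other gene. The other 5 (the pseudogene Hnrnpa1l2-ps2, Hnrnpa3, Snrpa, Snrpd1 and Snrpd2) appear only on probe sets that name several genes, and no values are given for them. The 57 genes have 141 probe sets of their own. At least 1 probe set of each passed the filter on low signal, which kept 128 of the 141 and 6665 genes in all.

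C57Bl/6 mice under isoflurane received 1 or 7 shocks of 25 mA through ear clip electrodes, and tissue was taken at 2 h or 6 h. The sham group got the same handling without current and was taken at 2 h. The VMH was cut from frozen sections by laser microdissection, RNA of 2 or 3 animals was pooled, and 1 array was hybridised for each of 5 groups, namely sham (2 h), a single shock (2 h and 6 h) and 7 shocks (2 h and 6 h). The labels give no age. A descriptive field of the same samples names the paraventricular nucleus, whereas titles and source fields name the VMH. The VMH transcription factor Nr5a1 read between 67.3 and 157.9 on the 5 arrays. With 1 array per group, differences below have no replicate check and carry no test. Per the series' design text the array work was done on 2 sets of animals. How these 5 arrays relate to the 2 sets is not stated in the sources used here. Genes are described by size, and "past 2-fold" means a log2 difference of at least 1 in either direction.

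Introns are removed by the spliceosome, which assembles anew on each intron from small nuclear ribonucleoprotein particles (snRNPs) named U1, U2, U4, U5 and U6. U2AF marks the 3' end of the intron, and the SF3a and SF3b complexes carry the U2 snRNP onto the branch region. The Sm proteins, encoded by several Snrp genes, form a ring on the snRNA of most particles, and many PRPF proteins belong to the U4/U6.U5 tri-snRNP or to the complexes that activate it. SR proteins bind mostly exonic sequences and recruit this machinery, while hnRNP proteins coat nascent RNA and often oppose them. Brain is known for its wide use of alternative splicing, and neuronal activity is known to alter exon choice.

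Sequences are shown for the promoters of Srsf11 and Srsf4 (SR proteins), Sf3a2 (an SF3a subunit) and Snrpb2 (the B'' protein of the U2 snRNP), to which the results below return most often. They were chosen after their values were seen. Of the 57 genes, 51 matched the RefSeq promoter table (GRCm38.p6) by symbol. The 250 bases before the most upstream listed start are given whole for Srsf4 and Snrpb2. For Sf3a2 and Srsf11, whose windows overlap the neighbouring genes Plekhj1 and Lrrc40 in the annotation, 30 bases are given. Capitals mark matches to CCGGAAG, the core bound by ETS factors, or to GCGGGGGCG, an Egr motif, read on either strand; in Srsf4 and Snrpb2 the reverse complements stand. The coordinates are chr4:131873387-131873636 (plus strand) for Srsf4, chr2:143062819-143063068 (plus) for Snrpb2, chr10:80798648-80798677 (plus) for Sf3a2 and chr3:158036692-158036721 (minus) for Srsf11.
Srsf4: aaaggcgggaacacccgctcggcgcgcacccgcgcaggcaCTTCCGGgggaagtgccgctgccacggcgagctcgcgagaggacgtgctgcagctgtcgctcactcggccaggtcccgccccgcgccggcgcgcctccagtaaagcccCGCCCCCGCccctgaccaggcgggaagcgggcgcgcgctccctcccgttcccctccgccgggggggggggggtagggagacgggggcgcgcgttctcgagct
Snrpb2: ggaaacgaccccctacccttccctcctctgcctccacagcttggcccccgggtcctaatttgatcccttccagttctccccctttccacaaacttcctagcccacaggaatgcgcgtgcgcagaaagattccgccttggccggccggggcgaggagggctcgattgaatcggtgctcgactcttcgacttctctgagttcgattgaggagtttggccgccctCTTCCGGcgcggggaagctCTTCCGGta
Sf3a2: cgcctttgctcCCGGAAGggatcgcttcgt
Srsf11: aaaagctcacaCCGGAAGccccgaccacgg
The ETS core CCGGAAG was found in 16 of the 51 promoters (31.4%) and in 7.07% of the 27025 promoters of the table, each read over 250 bases on both strands. The Sp-type box GGGCGG stood in 33 of the 51 (64.7%, against 33.0%), and CCAAT in 25 (49.0%, against 34.5%). TATAAA stood in 4 (7.84%, against 13.0%). Of the motifs of activity-induced factors, the cyclic AMP element TGACGTCA stood in 1 (Snrpg; 1.96%, against 1.60%), the AP-1 site TGAGTCA in 2 (Hnrnpa1 and Snrpc; 3.92%, against 4.43%) and GCGGGGGCG in 3 (Srsf4, Srsf9 and U2af1; 5.88%, against 2.55%). Matches of different motifs may overlap. These are matches of letters in a fixed window and show no binding.

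The arrays differed in overall brightness, with median signals of 20.3 to 31.6, so every array was set to the same median. Relative to sham, this removed log2 shifts of -0.13 (2 h) and 0.40 (6 h) after a single shock, and of 0.51 (2 h) and 0.49 (6 h) after 7. The 3' to 5' ratio of the Gapdh controls was 5.37 to 8.77 and highest on the array of 1 shock at 2 h. The seizure-induced factor Fos read 12.6 on the sham array, 184.9 and 75.4 at 2 h after 1 and 7 shocks, and 23.3 and 25.5 at 6 h. Summed markers differed between the highest and the lowest array by 1.17 times for astrocytes, 1.18 for oligodendrocytes, 1.19 for neurons, 1.43 for the paraventricular and supraoptic nuclei, 1.54 for microglia, 1.62 for the VMH, 1.68 for endothelium and pericytes, and 1.88 for the arcuate nucleus. These sums are led by their brightest probe sets. At 2 h after 7 shocks, 3 of 4 kept microglia markers were past 2-fold below sham (Aif1 -1.59, Csf1r -1.53 and P2ry12 -2.24) and C1qb stood at 0.89. Of all genes, 14.0% were past 2-fold in that comparison, and 14.6% at 6 h after 7 shocks against sham. Of 3 kept paraventricular and supraoptic markers, 2 were past 2-fold above sham at 2 h and 6 h after 7 shocks (Oxt 1.68 and 1.67, Avp 2.25 and 1.61). At 6 h after 1 shock against sham, Avp stood at 2.33 and Oxt at -0.51. Their sham readings were low, at 16.4 for Oxt and 9.88 for Avp. Of 4 kept arcuate markers, 3 were past 2-fold higher at 6 h after 7 shocks than at 2 h (13.7% of all genes past 2-fold). The same number was higher than at 6 h after 1 shock (17.6% of all genes past 2-fold). The fourth, Cartpt, stood at -0.36 and -0.62 in these comparisons. Of the others, Npy and Tac2 were dim on some arrays, with readings down to 29.6 and 15.0. No listed marker on the array was at 0 throughout. The 3 markers of cortex and amygdala on the array summed to 6.52 after 1 shock at 6 h and to between 91.2 and 202 on the others. The part of these differences in the results below was not tested, and in bulk tissue fewer cells of a type and less RNA per cell cannot be told apart.

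Levels given below are readings, that is, centred signals on a linear scale with a pseudocount of 1.2 included, and the differences are log2 differences of them. Signals of different probe sets do not measure transcript amounts on a common scale, so no gene is called more abundant than another, and brightness refers to the probe set's signal only. The probe sets of the splicing factor genes were bright, with a median reading of 259 against 102 over all 6665 genes. Their level varied little: the median distance from the lowest to the highest array was 0.77 on the log2 scale, a factor of 1.70, against 0.99 or 1.99 times over all genes. The brightness goes with this narrowness. In the brightest 25% of genes, which holds 29 of the 57, the median range was 0.56 for the splicing factor genes and 0.58 for all. In the next 25%, with 17 of them, it was 0.79 against 0.91, and among the 5 in the dimmest 25% it was 1.62 against 1.48. Hnrnph1, which binds G-rich RNA, was the steadiest of the 57, with readings of 1091 on the sham array, 1050 and 1030 at 2 h and 6 h after 1 shock, and 1082 and 1023 at 2 h and 6 h after 7 shocks. Its highest array was 1.07 times its lowest, though its dimmer probe set ran from 134.2 to 208.9. Hnrnpd, Hnrnpu, Sf3b2, Srsf1 and Hnrnpab followed, with ranges of 0.11 to 0.26. These hold for the brightest probe set: the second probe set of Srsf1 ran from 334.6 to 760.9, that of Hnrnpab from 607.5 to 930.2, and a dimmer one of Sf3b2 from 68.0 to 143.9.

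**Figure D1:**
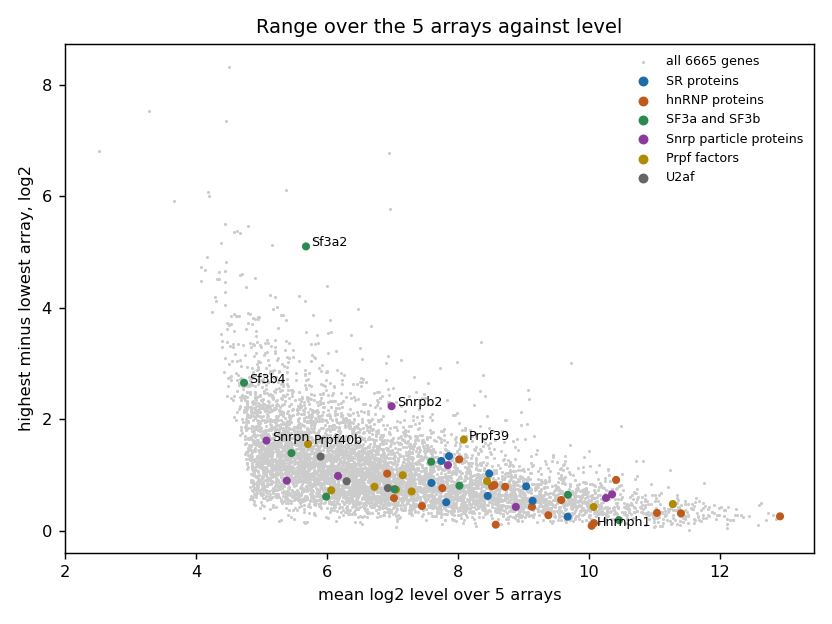
The range over the 5 arrays (highest minus lowest log2 level) is plotted against the mean log2 level for 6665 genes (grey) and for the 57 splicing factor genes (coloured by family). Ranges narrow with level in both, and Sf3a2 lies far above the other splicing factor genes at 5.10.

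Across the 8 comparisons made, 34 of 456 values of the splicing factor genes (7.46%) were past 2-fold, 17 higher and 17 lower. Over all genes the share was 14.9%. At least 1 comparison was past 2-fold for 13 of the 57 genes (22.8%), against 47.1% of all genes, and 44 genes passed in none. Sf3a2 alone accounts for 7 of the 34 values. Genes with a second kept probe set hold 13 of the 34. Among the 46 splicing factor genes in the brightest 25% of probe sets, 1 to 4 were past 2-fold in any comparison. In the order in which the comparisons follow below, these were 1, 3, 1, 2, 1, 1, 4 and 2 genes, beside background shares of 5.42%, 6.56%, 7.39%, 7.39%, 7.04%, 9.21%, 7.96% and 6.24%.

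**Figure D2:**
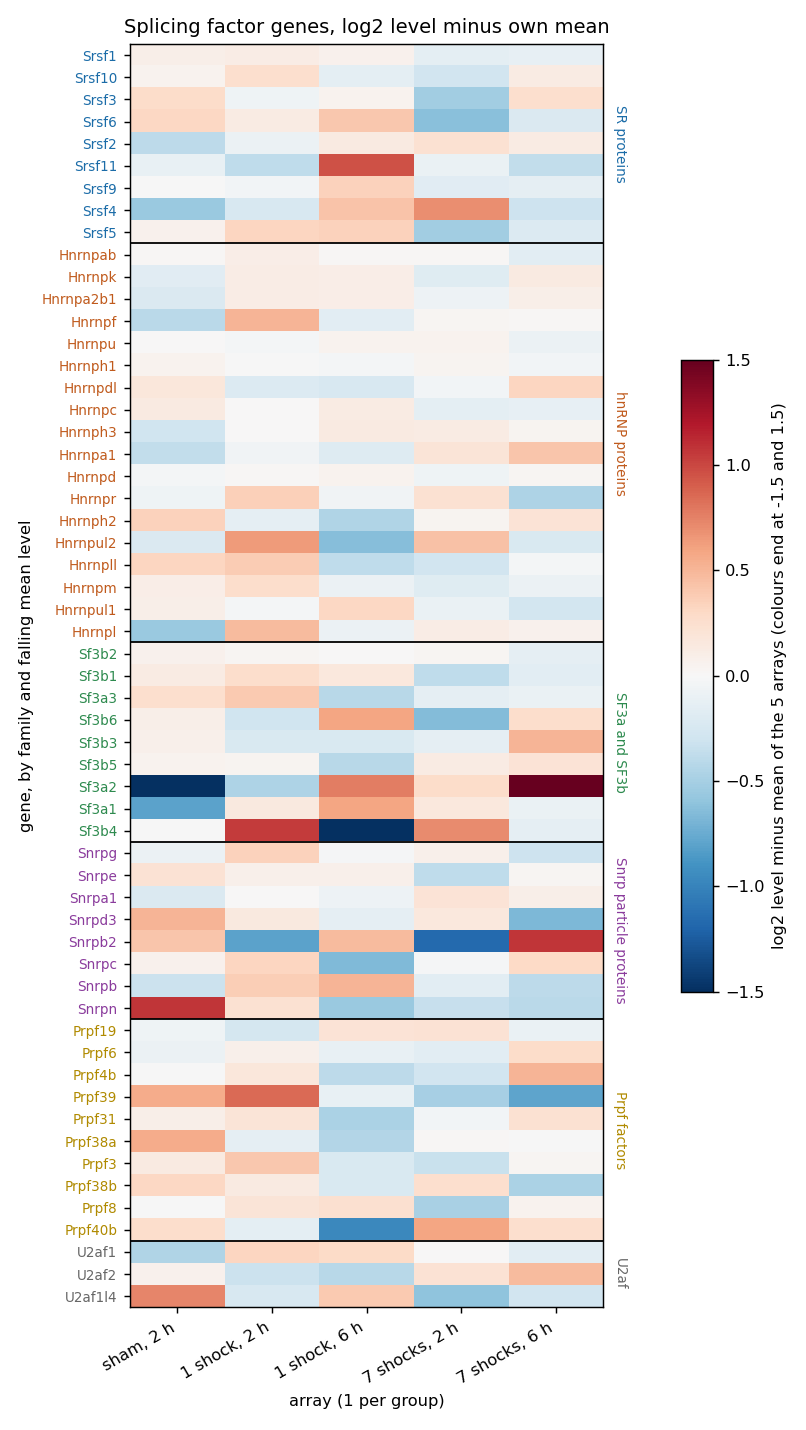
Each row is 1 of the 57 genes and each column 1 array, coloured by the log2 level minus the gene's mean over the 5 arrays, with genes ordered by family and mean level. Most rows are pale; Sf3a2, Sf3b4 and Srsf11 stand out on single arrays, and Snrpb2 is low on both arrays of 2 h after shock.

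At 2 h after 1 shock, compared with the sham of the same time, 3 splicing factor genes were past 2-fold higher and 1 lower, 4 of 57 (7.02%), against 13.1% of all genes (6.29% higher, 6.83% lower). Higher were Sf3a2 (2.39), the SF3b subunit Sf3b4 (1.05) and Hnrnpl (1.03), which binds CA-rich RNA, and lower was Snrpb2 (-1.22). The median of the 57 was 0.10, against 0.01 over all genes, and 33 lay above 0. Without rescaling of the arrays 1 was higher and 2 lower, at a median of -0.032 for the 57 and -0.12 for all genes, of which 4.68% were higher and 9.14% lower. Hnrnpl read 82.4 on the sham array, 167.9 and 113.6 at 2 h and 6 h after 1 shock, and 130.5 and 126.5 after 7 shocks. It has a single probe set, its sham array is the lowest of the 5, and it stood at 0.90 without rescaling. Hnrnpf, a relative of Hnrnph1, stood at 0.91, and its second probe set at 0.87.

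At 2 h after 7 shocks, 2 genes were higher than sham and 4 lower, 6 of 57 (10.5%), against 14.0% of all genes (7.10% higher, 6.86% lower). Sf3a2 (3.12) and Srsf4 (1.26) were higher. Snrpb2 (-1.57), Snrpn (-1.42), U2af1l4 (-1.33) and Prpf39 (-1.06) were lower. The median was -0.06, against 0.01 over all genes. Without rescaling 8 were higher and 1 lower, at a median of 0.44 against 0.51 over all genes, of which 20.5% were higher and 2.31% lower.

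The sham has no 6 h array, so both 6 h comparisons with it mix shock and time. After 1 shock, 3 genes were past 2-fold above the 2 h sham and 3 below, 6 of 57 (10.5%), against 15.0% (7.25% above, 7.73% below). Above were Sf3a2 (3.61), the SF3a subunit Sf3a1 (1.40) and Srsf11 (1.07), and below were Snrpn (-1.62), Sf3b4 (-1.61) and Prpf40b (-1.22). Srsf4 stood at 0.98. The median was -0.01, against 0.07 over all genes. Without rescaling 6 were above and 2 below, against 17.5% and 3.83% of all genes. After 7 shocks, only Sf3a2 (5.10, or 4.29 to 5.59 over the settings tried, against a sham signal of 4.8) was past 2-fold above sham, and Snrpn (-1.47), Prpf39 (-1.35), Snrpd3 (-1.18) and U2af1l4 (-1.02) were below, 5 of 57 (8.77%), against 14.6% (7.40% above, 7.25% below). The median was -0.04, against 0.02 over all genes. Without rescaling 6 were above and 0 below, against 20.5% and 2.84% of all genes. The 4 comparisons with sham share the sham array, on which Sf3a2 was the lowest and Snrpn the highest of the 5 readings.

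The contrast of 7 shocks with 1 compares repeated with single treatment. At 2 h, Prpf39 (-1.35) was the only splicing factor gene past 2-fold, 1 of 57 (1.75%), against 14.8% of all genes (7.68% higher, 7.10% lower). The median of the 57 was -0.20, against 0.00 over all genes, with 36 genes below 0. Without rescaling 5 were higher and 0 lower, against 27.4% and 1.76% of all genes, and their median of 0.44 again lay below that of all genes, 0.64. The lowest of the 5 arrays was that of 7 shocks at 2 h for 18 of the 57 (31.6%, against 20.0% of all genes). The highest was that of 1 shock at 2 h for 18 (31.6%, against 18.8%). Hnrnpm, Prpf3, Sf3b1, Srsf1 and Srsf10 belong to both groups. Among SR genes, Srsf5 stood at -0.84, Srsf6 at -0.75, Srsf10 at -0.54 and Srsf3 at -0.45, and Srsf4 at 0.94. Second probe sets stood at 0.90 for Srsf6, 0.07 for Srsf10 and -0.17 for Srsf3. At 6 h, Sf3a2 (1.49), Sf3b4 (1.48) and Prpf40b (1.21) were past 2-fold higher after 7 shocks and Srsf11 (-1.33) lower, 4 of 57 (7.02%), against 17.6% (8.60% higher, 8.97% lower). The median was -0.01, against -0.05 over all genes. Without rescaling 4 were higher and 1 lower, against 10.5% and 7.34% of all genes.

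The contrast of 6 h with 2 h compares later with earlier collection after the same number of shocks. After 1 shock, Srsf11 (1.34), Snrpb2 (1.28) and Sf3a2 (1.23) were past 2-fold higher at 6 h, and Sf3b4 (-2.66) and Hnrnpul2 (-1.28) lower, 5 of 57 (8.77%), against 16.1% of all genes (8.19% higher, 7.86% lower). The median was -0.05, against 0.06. Without rescaling 7 were higher and 1 lower, against 24.4% and 2.96% of all genes. After 7 shocks, Snrpb2 (2.24) and Sf3a2 (1.99) were higher and Srsf4 (-1.002) lower, 3 of 57 (5.26%), against 13.7% (6.78% higher, 6.96% lower). The median was 0.03, against 0.02. Without rescaling 2 were higher and 1 lower, against 6.44% and 7.25% of all genes.

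**Figure D3:**
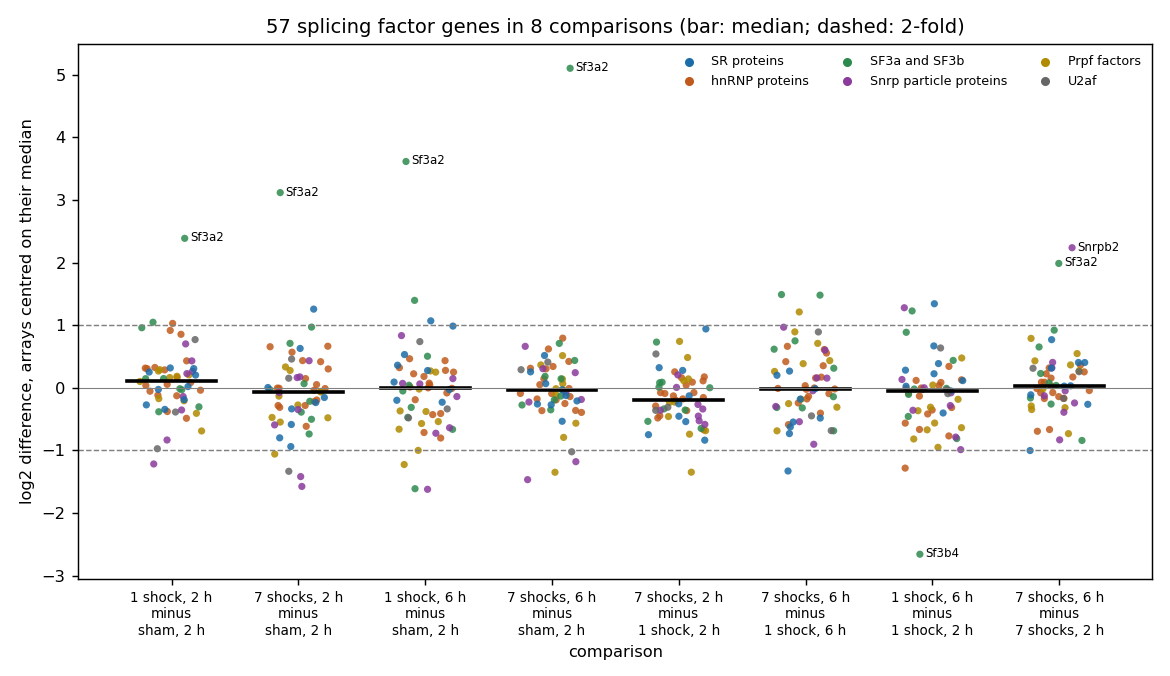
Log2 differences of the 57 genes in the 8 comparisons are shown as points coloured by family, with the median as a bar and 2-fold as dashed lines. Medians lie between -0.20 and 0.10, and Sf3a2 is the highest point in the 4 comparisons with sham.

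The comparisons of 7 shocks with 1 at 2 h and at 6 h share no array, nor do those of 6 h with 2 h after 1 and after 7 shocks. For shock number, 0 of 57 genes passed 2-fold the same way in both, against 2.40% of all genes, and 30 of 57 had the same sign. Prpf39 (-1.35 and -0.69), Srsf5 (-0.84 and -0.55), Srsf6 (-0.75 and -0.63), Snrpb (-0.53 and -0.90), Sf3a2 (0.73 and 1.49), U2af2 (0.54 and 0.89) and Prpf40b (0.74 and 1.21) were at least 0.5 the same way in both. These values are of the brightest probe sets. The second of Srsf6 stood the other way in both (0.90 and 0.44), and that of Prpf39 at 6 h (-0.59 and 0.27). For time, 2 of 57 passed the same way in both (3.51%, against 2.00%), namely Sf3a2 and Snrpb2, and 29 of 57 had the same sign. Sf3b6, the SF3b subunit next to the branch adenosine, differed by 0.89 and 0.92, Sf3b4 by -2.66 and -0.84 and Hnrnpul2 by -1.28 and -0.67. Across the 57 genes the pair of time comparisons correlated at 0.43, which became 0.22 without Sf3a2 and Snrpb2, against 0.00 across all genes. For shock number the correlation was 0.22, or 0.14 without both genes, against 0.05 across all genes. The genes of 1 array share its amplification and scaling, and these correlations are descriptions.

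Among the 9 SR genes, Srsf11 and Srsf4 passed 2-fold in some comparison. Srsf11 encodes an SR-related protein that interacts with U2AF. It read 216.0 on the sham array, 178.8 at 2 h and 453 at 6 h after 1 shock, and 216.6 and 180.4 at 2 h and 6 h after 7 shocks. The array of 1 shock at 6 h is the high one, and the other 4 lie close together. It stood 1.06 above the next array. Genes at least 2-fold above or below all other arrays made up 2.58% on that array, 1.40% on the sham array, 1.82% on the array of 1 shock at 2 h, and 1.59% and 2.15% at 2 h and 6 h after 7 shocks. Among the 57, Srsf11, Sf3b4 and Sf3a2 (on 2 arrays) did so. The second, dimmer probe set of Srsf11 read 10.6, 57.0, 54.3, 22.5 and 24.1 in the same order of arrays. It was high at 6 h against sham (2.36) and against 7 shocks at 6 h (-1.17 for 7 minus 1), but not against 1 shock at 2 h (-0.07). The comparisons with sham and with 7 shocks at 6 h were the only ones of the 34 in which all of 2 or more kept probe sets passed 2-fold one way. The same array had the low cortex and amygdala markers given above, and their part in the Srsf11 reading was not tested.

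Srsf4 encodes a large SR protein with a long arginine and serine rich tail. Its only probe set read 145.3 on the sham array, 181.0 and 287.6 at 2 h and 6 h after 1 shock, and 347 and 173.3 at 2 h and 6 h after 7 shocks. It was thus highest early after 7 shocks and late after 1 shock. Against sham at 2 h after 7 shocks it stayed past 2-fold under each of the alternative settings, at 1.20 to 1.76. Srsf6 was low on the array of 7 shocks at 2 h, with 231.2 against 305.9 to 472 on the others, and the third probe set was lowest there too (65.3, against 73.7 to 93.0). The second read 96.1 there, within the 51.5 to 149.4 of the other arrays. Srsf3, an SR protein that also exports mRNA, read 368 on that array against 504.2 to 640.4, and its next 3 probe sets were lowest there too, at 400.8, 304.4 and 169.3. The other kept probe set read 57.4 there and 39.5 to 125.3 elsewhere. Srsf1, the founding member of the family, ran from 739.7 to 883.4 on its brightest probe set. Its second read 334.6 at 6 h after 7 shocks and 608.5 to 760.9 elsewhere, and stood at -1.19 for 7 against 1 shock at 6 h, where the brightest was at -0.18. Srsf5, with the dimmest probe set of the SR genes, read 202.3 on the sham array, 240.7 and 244.8 after 1 shock, and 134.8 and 167.6 after 7 shocks, both of the latter below the other 3.

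The 18 hnRNP genes were the steadiest family, with a median range of 0.50, and 2 of them passed 2-fold in some comparison. Hnrnpul2, a nuclear scaffold-type protein, read 223.6 on the sham array, 404.1 and 166.2 at 2 h and 6 h after 1 shock, and 352.2 and 221.9 after 7 shocks. It was thus high on both 2 h arrays after shock. Its other probe set read 166.0, 188.2, 362.1, 270.2 and 198.5 in the same order and was highest at 6 h after 1 shock, where the first was lowest. Hnrnpf read 1033 on the sham array, 1948 and 1229 after 1 shock, and 1395 and 1382 after 7 shocks. Its second probe set was also lowest on the sham array (431.4) and highest at 2 h after 1 shock (788.2), and the fourth was highest there too (142.2), while neither of the dimmer probe sets was lowest on the sham array. Hnrnpa1, which opposes SR proteins at many exons, ran from 326.3 on the sham array to 565 after 7 shocks at 6 h (0.79). Its second probe set stood at 0.35 for that difference. The third, a dim one, was highest on the sham array (98.1) and stood at -1.93. Hnrnpab, with the brightest probe set of the 57, ran from 6948 to 8334. Hnrnpa2b1, Hnrnpk and Hnrnpc, abundant packagers of nascent RNA, had ranges of 0.32, 0.32 and 0.28 on their brightest probe sets. A dim probe set of Hnrnpk ran from 34.5 to 80.6. The second of Hnrnpc stood at 1.19 at 6 h after 1 shock against sham. At 6 h after 7 shocks against sham, the other probe sets of Hnrnpa2b1 lay at -0.31 to -0.24, where the brightest was at 0.30.

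Of the 9 SF3a and SF3b genes, 3 passed 2-fold in some comparison. Sf3a2 read 7.14 on the sham array, 37.3 and 87.3 at 2 h and 6 h after 1 shock, and 61.9 and 245 at 2 h and 6 h after 7 shocks. The sham array is the lowest, 2.39 below the next, and the array of 7 shocks at 6 h is the highest. Within each shock number it was higher at 6 h, and at each time higher after 7 shocks. Its deposited sham signal was 4.8, below the 25th percentile of all signals (6.1), and its 4 differences from sham rest on that signal. With a pseudocount of 6.1 the difference of 7 shocks at 6 h from sham was 4.29. The other probe set of Sf3a2 lay below the filter, with deposited signals of 0.5 to 7.0, and was lowest at 6 h after 1 shock (0.5), where the first was second highest. Of its partner subunits, Sf3a3 read 309.5 on the sham array and 195.4 to 342.8 on the others. Sf3a1 read 25.1 on the sham array and 41.0 to 66.1 on the others, with a second probe set at 0.58 where the first was at 1.40.

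Sf3b4, which contacts pre-mRNA near the branch region, was dim. It read 26.5 on the sham array, 54.8 and 8.69 at 2 h and 6 h after 1 shock, and 43.4 and 24.2 at 2 h and 6 h after 7 shocks. The array of 1 shock at 6 h is the low one, 1.48 below the next, and the one with the low cortex and amygdala markers, whose part was not tested. The deposited signal there was 8.4. The other probe set of Sf3b4 lay below the filter, with deposited signals of 5.6 to 13.5, and was lowest at 6 h after 7 shocks. Sf3b6 read 204.8 on the sham array, 157.1 and 290.3 after 1 shock, and 122.8 and 232.4 after 7 shocks. Both 6 h arrays lie above the 3 arrays of 2 h, the sham included. Its second probe set followed this split (102.7, 109.7, 182.3, 104.8 and 176.3), and the third was nearly flat, from 60.7 to 77.4. Sf3b1, the scaffold of SF3b, ran from 628.3 after 7 shocks at 2 h to 985 after 1 shock at 2 h. Sf3b2, another SF3b subunit, ran from 1284 to 1469. Of the U2AF genes, the large subunit gene U2af2 read 58.9 to 109.3 and the small subunit gene U2af1 89.3 to 152.1. U2af1l4, a relative of U2af1, read 99.4 on the sham array, 50.6 and 78.6 after 1 shock, and 39.4 and 48.9 after 7 shocks, on a single probe set.

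Of the 8 Snrp genes, 3 passed 2-fold in some comparison. Snrpb2 read 168.9 on the sham array, 72.7 at 2 h and 176.2 at 6 h after 1 shock, and 56.7 at 2 h and 267.1 at 6 h after 7 shocks. Both arrays taken 2 h after a shock are low, and the sham lies with the 6 h arrays. Its second probe set read 105 to 134.8, with no such split: 125.3 and 114.3 on the arrays of 2 h after shock and 105.0, 134.8 and 106.9 on the others. Averaging the kept probe sets brought the differences from sham at 2 h to -0.48 and -0.73, under 2-fold. The partner U2 protein gene Snrpa1 read 405.2 to 546.7. Snrpd3, an Sm ring protein, read 326.4 on the sham array, 255.4 and 209.8 after 1 shock, and 256.4 and 144.1 after 7 shocks. Its second probe set read 320.6, 261.2, 154.8, 144.9 and 25.7, so both were lowest at 6 h after 7 shocks, at -1.18 and -3.64 against sham, while the third was at -0.27. Snrpg, another Sm ring protein, ran from 1053 to 1660. Snrpn, the brain Sm protein of an imprinted locus, read 70.7 on the sham array and 23.0 to 39.7 on the 4 shock arrays. This rests on 1 dim probe set, and those it shares with Snurf were left out.

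Of the 10 Prpf genes, 2 passed 2-fold in some comparison. Prpf39, a partner of the U1 snRNP, read 400.4 on the sham array, 489.2 and 253.1 at 2 h and 6 h after 1 shock, and 192.3 and 157.2 at 2 h and 6 h after 7 shocks. Both arrays after 7 shocks lie below the other 3. Its second probe set read 245.9, 384.9, 224.3, 256.3 and 271.1 and the third 109.3, 148.5, 100.9, 83.1 and 100.5. The 3 probe sets had 1 sign for 7 against 1 shock at 2 h (-1.35, -0.59 and -0.84) and not for either array of 7 shocks against sham. Prpf40b, another U1-associated protein, read 26.9 at 6 h after 1 shock and 47.4 to 79.1 elsewhere. In that array's comparison with sham, 8 of 10 Prpf genes were below 0, at a median of -0.46, and at 6 h against 2 h after 1 shock it was again 8 of 10, at -0.46. These comparisons share the array of 1 shock at 6 h. At 2 h after 7 shocks against sham, which does not use that array but shares the sham array with the first, 8 of 10 were also below 0, at -0.20. Medians over all genes were 0.07, 0.06 and 0.01 in the same order. In the other comparisons 4 to 6 of 10 Prpf genes were below 0. Their medians there lay between -0.23 (7 against 1 shock at 2 h) and 0.32 (7 against 1 shock at 6 h). Prpf8, the protein at the catalytic centre, ran from 47.7 to 79.1, and Prpf19, the ubiquitin ligase of the activating complex, from 2071 to 2895. Prpf4b, a kinase of the tri-snRNP, read 494.5 at 6 h after 7 shocks and 266.3 to 393.4 elsewhere.

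**Figure D4:**
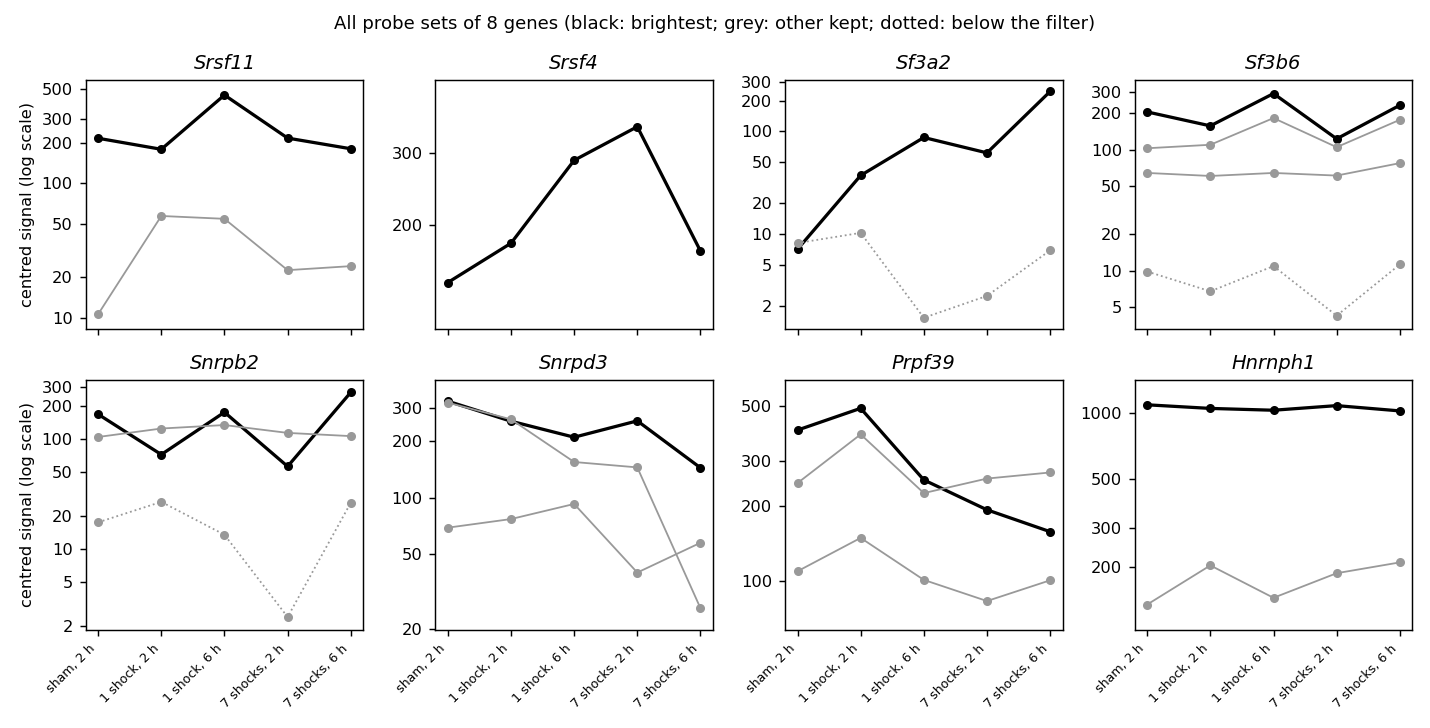
Readings of all single-gene probe sets of 8 genes are drawn on log axes over the 5 arrays, with lines joining the values of 1 probe set (black: brightest; grey: other kept; dotted: below the filter). The second probe sets of Snrpb2 and Prpf39 do not follow the first, those of Sf3b6 and, in part, Srsf11 and Snrpd3 do, and Hnrnph1 is flat on its brightest.

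Agreement between probe sets limits these readings. For the 33 genes with 2 or more kept probe sets, the brightest and the second brightest had the same sign in 148 of 264 differences (56.1%), against 57.6% over all 2454 such genes. Their differences correlated at 0.28, against 0.19 over all genes, across genes and comparisons that share arrays. Of the 13 differences past 2-fold on the brightest probe set, 6 had the same sign on the second and 3 were past 2-fold on it too. Those 3 were Srsf11 in 2 comparisons and Snrpd3 in 1. Over all genes 61.7% had the same sign and 19.9% were past 2-fold on both.

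**Figure D5:**
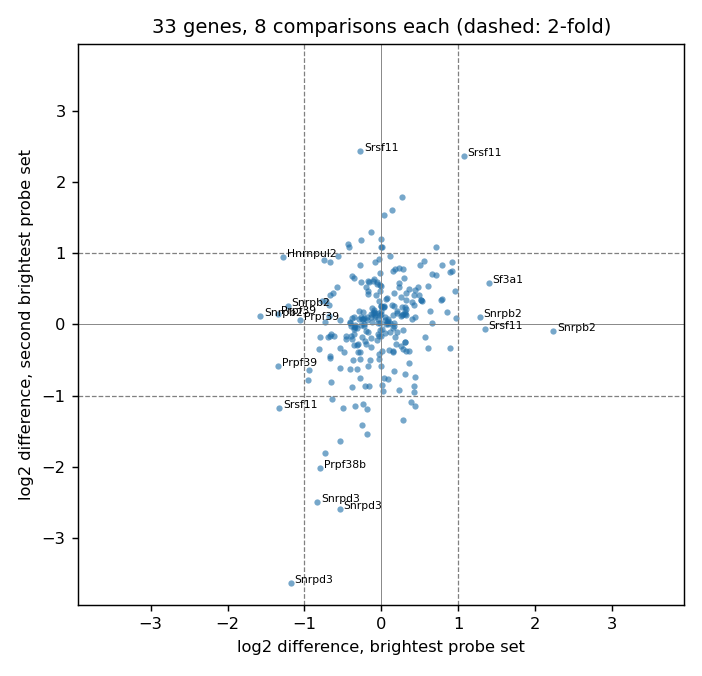
For 33 genes in 8 comparisons, the log2 difference on the brightest probe set (horizontal axis) is set against that on the second brightest (vertical axis), with 2-fold as dashed lines. Few points lie past 2-fold on both axes: Srsf11 in 2 comparisons and Snrpd3 in 1.

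Splicing genes outside the 7 prefixes were counted from 9 lists holding 149 genes, of which 112 were kept. Past 2-fold against sham were 11 at 2 h after 1 shock (5 higher, 6 lower), 8 at 2 h after 7 shocks (4 and 4), 12 at 6 h after 1 shock (5 and 7) and 10 at 6 h after 7 shocks (4 and 6). These are 9.82%, 7.14%, 10.7% and 8.93% of the 112, against 13.1%, 14.0%, 15.0% and 14.6% of all genes. Their medians lay between -0.05 and 0.02. For 7 against 1 shock, 10 were past 2-fold at 2 h (4 higher, 6 lower) and 12 at 6 h (6 and 6), which are 8.93% and 10.7% against 14.8% and 17.6% of all genes. For 6 h against 2 h it was 11 after 1 shock (6 and 5) and 6 after 7 shocks (3 and 3), which are 9.82% and 5.36% against 16.1% and 13.7%.

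The list of brain splicing regulators held 20 kept genes. Against sham, 3 were past 2-fold at 2 h after 1 shock (1 higher, 2 lower), 6 at 2 h after 7 shocks (3 and 3), 3 at 6 h after 1 shock (1 and 2) and 5 at 6 h after 7 shocks (2 and 3). These are 15.0%, 30.0%, 15.0% and 25.0% of the 20, against 13.1%, 14.0%, 15.0% and 14.6% of all genes. Rbfox2, which binds UGCAUG beside alternative exons, read 28.7 on the sham array, 41.1 and 25.4 after 1 shock, and 65.6 and 59.4 after 7 shocks. It stood at 1.19 at 2 h and 1.05 at 6 h after 7 shocks, with its other kept probe sets at 0.39 to 2.08 and 0.73 to 1.29. Nova1, a neuronal regulator of exon choice, read 65.5 on the sham array, 62.9 and 77.8 after 1 shock, and 132.1 and 44.9 at 2 h and 6 h after 7 shocks. From 2 h to 6 h after 7 shocks it differed by -1.56, and by -0.99 on its other probe set. Srrm4, which promotes neuronal microexons, read 96.9 on the sham array and 20.7 to 39.7 on the 4 shock arrays, on 1 probe set. The polypyrimidine tract protein Ptbp1 was higher on the brightest probe set (2.01 at 2 h after 7 shocks) and not on the second (-0.17). At 6 h after 1 and 7 shocks against sham it stood at 1.63 and 1.49, and the second at -2.38 and -3.44. Probe sets also differed for Elavl3 at 2 h after 1 shock (-1.42, others -0.15 to 2.33). The same held for Ptbp3 at 2 h after 7 shocks (-1.03, other 0.60).

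Of the SR-related proteins and SR kinases, 19 were kept and 0 were past 2-fold at 2 h after either number of shocks, against 13.1% and 14.0% of all genes. Sfswap, an SR-related regulator, read 41.7 on the sham array, 39.8 and 73.1 after 1 shock, and 27.7 and 126.9 at 2 h and 6 h after 7 shocks. It differed by 2.19 between the last 2 arrays, with its other probe sets at 0.96 and 1.38. The kinase gene Srpk1 stood at -1.05 and Srek1 at -1.22 at 6 h after 7 shocks against sham. The other probe sets of Srek1 lay at -0.16 to -0.05 there. The late spliceosome list was led at 2 h after 1 shock by Xab2 (2.62), whose other probe sets lay from -0.56 to 1.91, and Crnkl1 (1.81). Of the snRNP proteins, the minor spliceosome gene Rnpc3 stood at 1.72 there, and of the helicases Ddx46 at -2.18 (-0.57 on its other probe set). Ddx46 also stood at -2.67 at 2 h after 7 shocks and -1.47 at 6 h after 1 shock against sham. Its other probe set was at 0.39 and 0.57 in these. From 2 h to 6 h after 7 shocks, Ddx46 differed by 2.10, and by -3.09 on the other probe set. Lower at 2 h after 1 shock were also Isy1 (-1.38), Ctnnbl1 (-1.34) and Lsm7 (-1.10). The helicase genes Dhx16 (-1.74) and Ddx42 (-1.39) were low at 6 h after 1 shock against sham, and Ddx41 stood at 1.09 and 1.295 at 2 h and 6 h after 7 shocks. Smn1, the assembly factor of Sm rings, read 39.2 on the sham array, 84.3 and 32.7 after 1 shock, and 23.4 and 28.0 after 7 shocks. Gemin2, its partner in assembly, stood at 1.79 at 6 h after 1 shock against sham. The list of FET and DBHS proteins had no member past 2-fold against sham among 12 kept, and the exon junction list had 1 of 7 (at 6 h after 1 shock), against 13.1% to 15.0% of all genes per comparison.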

How the data were processed

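Transcripts of microdissected VMH were read on 5 Affymetrix arrays, 1 per group, with RNA of 2 or 3 animals pooled. The deposited values are MAS5 signals, a linear intensity for each probe set, per the submitters' processing notes. No source used here gives the software version, target intensity or detection calls. Of 22690 probe sets, 64 controls were left out, as were 691 annotated with several symbols and 1555 with none. Of the remaining 20380, 20351 matched a RefSeq gene ID with 0 symbols changed. A pseudocount of 1.2 (10th percentile) was added and log2 taken, the 50% of probe sets with the higher mean signals were used (at least 28.4), each array was centred on its kept median, and a gene took its brightest kept probe set. Genes were named by rule: up to 4 per direction and comparison past 2-fold, members past 2-fold on all their kept probe sets or in both comparisons of a pair without shared arrays, members standing apart on 1 array, the brightest and dimmest of each family, and list genes past 2-fold (up to 3 per direction). Other members were described after their values were seen. The members and lists were chosen with earlier results of these data known. With 1 array per group no precision can be stated. The method was tested on simulated data in which all probe sets of a gene changed together. That checks the calculation and says nothing about disagreement between probe sets. Alternatives were no rescaling, quantile normalization, pseudocounts of 0 and 6.1 (25th percentile), no filter, the top 25%, the mean of kept probe sets, and leaving out probe sets with suffixes for cross-hybridisation. Python 3.11.15, numpy 2.4.6, pandas 2.3.3 and matplotlib 3.10.9 were used.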

Additional observations from a re-analysis of the deposited data

Results flagged for a closer look

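Effects of shock number or time that pointed opposite ways in the matched pair of comparisons, with 1 of them past 2-fold, were found for 3 genes. Each side is 1 array against 1, and the difference between the sides was not tested. For 7 against 1 shock, Srsf11 stood at 0.28 at 2 h and -1.33 at 6 h, and for 6 h against 2 h at 1.34 after 1 shock and -0.26 after 7 shocks. The values of -1.33 and 1.34 use its high reading on the array of 1 shock at 6 h, and the others do not use that array. Sf3b4 stood at -0.34 at 2 h and 1.48 at 6 h for 7 against 1 shock, and the latter uses its low reading on the same array. Its other probe set, below the filter, stood at -0.75 and -0.33. Srsf4 differed between 6 h and 2 h by 0.67 after 1 shock and by -1.0 after 7 shocks.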

How the results depend on the processing

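Of the 34 gene differences past 2-fold, 15 stayed past 2-fold in each alternative where the gene was measured, and none changed sign. All 7 of Sf3a2 are among the 15, and Sf3a2 was not measured in the top 25% or without suffixed probe sets. The rest are of Sf3b4, Prpf40b, Snrpn, Srsf4, Snrpb2 and Srsf11. Of the genes among the 15, only Snrpb2 and Srsf11 have a second kept probe set. Without rescaling 22 of 34 stayed past 2-fold, with quantile normalization 33, with a pseudocount of 0 all 34 and of 6.1 30, without a filter 31, in the top 25% 13 of 15, with mean probe sets 25, and without cross-hybridising suffixes 22 of 23. Of the 34, 21 are on genes with 1 kept probe set, which the mean of kept probe sets cannot change. All 9 that fell under 2-fold with mean probe sets are among the 13 on genes with 2 or more. Without rescaling, the count past 2-fold became 5 for 7 against 1 shock at 2 h and 8 for 6 h against 2 h after 1 shock. Medians without rescaling were -0.032 (1 shock at 2 h), 0.44 (7 shocks at 2 h), 0.39 (1 shock at 6 h) and 0.45 (7 shocks at 6 h) against sham, 0.44 for 7 against 1 shock at 2 h and 0.48 for 6 h against 2 h after 1 shock; the medians of all genes moved with them. With a pseudocount of 6.1, 2 genes were past 2-fold at 2 h after 1 shock. In the top 25%, which holds 46 of the 57 genes, the counts against sham were 1, 3, 1 and 2 (1 shock at 2 h, 7 at 2 h, 1 at 6 h, 7 at 6 h) and 1 for 7 against 1 shock at 6 h, and the medians for 7 shocks against sham were -0.20 at 2 h and -0.15 at 6 h. With mean probe sets the counts were 3 for 6 h against 2 h after 1 shock, 2 for 7 against 1 shock at 2 h and 5 for 6 h against 2 h after 7 shocks. Without suffixed probe sets 5 passed for 7 against 1 shock at 2 h, at a median of -0.080. Without a filter the medians were 0.18 (1 shock at 6 h against sham) and 0.067 (6 h against 2 h after 1 shock), and with quantile normalization the former was -0.17. The cause of these moves was not tested, beyond fewer or other probe sets entering. No paired analysis was possible because each group has 1 array.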
